A study of Mus musculus with 28 samples.

Results

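The genes described are 9 members of the complement cascade and its regulators, measured in the lateral ventricle choroid plexus of mice. They were chosen by name, with earlier results of these data known and with the genes of C1q left out of the list. All 9 were found among the 27179 genes of the count tables. C1ra and C1s1 encode proteases of initiation, C4b and C2 encode parts of the classical and lectin convertase, and C3 encodes the component on which the pathways meet. Serping1, Cfi, Cd55 and Cd59a encode inhibitors. All 9 genes passed the filter on low counts in young libraries, and 8 passed it in aged libraries, where Cfi was too low to be tested.

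Complement is a chain of proteases and binding proteins in blood and tissue fluid that marks particles and cells for removal. In the classical pathway, C1q bound to its target activates C1r and then C1s, and C1s cuts C4 and C2. The fragments form a C3 convertase, and C3 cut by it coats surfaces and leads on to the membrane attack complex. C1 inhibitor (Serping1) blocks C1r and C1s in solution, factor I (Cfi) cuts the active fragments of C3 and C4, CD55 takes convertases apart on the cell surface, and CD59 stops the membrane attack complex there. The choroid plexus is an epithelium around a stroma of leaky vessels, fibroblasts and macrophages, and it lies between blood and cerebrospinal fluid. In mouse brain, complement proteins of the classical pathway also tag synapses, and astrocytes and oligodendrocytes are known to make C4.

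Poly(A) RNA was sequenced from 28 male mice, 1 library per mouse, in 7 groups of 4, and counted per gene. Young mice were wild-type C57/BL6 and 3 to 4 months old. They were sampled at zeitgeber time (ZT) 18, in the dark phase (night), at ZT 6 after 6 h of sleep disruption, or at ZT 6 with no disruption (day). Aged mice were 12 to 14 months old and were J20+ at ZT 18, J20+ at ZT 6, J20- at ZT 18 or J20- at ZT 6, where J20- animals are the wild-type littermates. All mice were perfused with buffered saline before dissection. The J20 line expresses mutant human APP, as in familial forms of Alzheimer's disease, from the PDGF-B promoter, which is active mainly in neurons. Young libraries formed batch 1 and aged libraries batch 2, so age and batch cannot be told apart, and no value was tested across age.

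Libraries held 14.6M to 43.9M counts, where M is 1e+06, with group means of 27.2M and 25.5M in J20+ libraries at day and night and 17.4M and 16.3M in J20- libraries. All 15 markers of choroid epithelium were detected, at 42360 to 51150 summed CPM (counts scaled to a library of 1e+06) in young libraries and 24100 to 53420 in aged libraries. Brain tissue markers differed between aged libraries: summed CPM of 12 oligodendrocyte markers was 147 to 1045 in J20+ night, 166 to 1090 in J20+ day, 720 to 5670 in J20- night and 151 to 2690 in J20- day libraries. J20+ day library 1 stood apart from its group, with the highest fibroblast, endothelial, mural, macrophage, ependymal and astrocyte marker scores of all aged libraries. Its interferon and acute-phase scores were also the highest, and several of the values that this library moves most are given with and without it. Scores of markers average the log2 CPM over their genes. Mouse App averaged 1610 ± 764 CPM in J20+ night and 1749 ± 344 in J20+ day, against 1084 ± 306 in J20- night and 1873 ± 130 in J20- day libraries (SD, n = 4 each). As mouse App need not collect reads of the human transgene, it does not check the genotype labels.

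Of the 9 genes, 5 (C1ra, C1s1, C3, Cd55 and Cd59a) matched an entry of the RefSeq promoter table of GRCm38.p6, and the 250 bases before the start used there were read. Those of C1s1 and C1ra are shown because these neighbouring genes encode partner proteases and C1s1 had the lowest p-value of the 9 genes for J20 genotype, and that of C3 because its level spread most between libraries. C1ra (GRCm38.p6 chr6:124512621-124523440, Entrez 50909) and C1s1 (chr6:124530344-124542392, Entrez 50908) lie 6903 bases apart and are read towards each other. The C1s1 window is chr6:124542360-124542609 on the minus strand, the C1ra window chr6:124512371-124512620 on the plus strand and the C3 window chr17:57228137-57228386 on the minus strand. Capitals mark matches on either strand to the core of an NF-kB site, searched as GGGA and CC with any 4 bases between them.
C1s1: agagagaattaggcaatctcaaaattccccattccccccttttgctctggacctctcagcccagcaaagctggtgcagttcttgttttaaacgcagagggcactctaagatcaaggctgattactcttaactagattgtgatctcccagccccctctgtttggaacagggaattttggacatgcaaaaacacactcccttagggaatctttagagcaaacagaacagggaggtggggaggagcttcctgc
C1ra: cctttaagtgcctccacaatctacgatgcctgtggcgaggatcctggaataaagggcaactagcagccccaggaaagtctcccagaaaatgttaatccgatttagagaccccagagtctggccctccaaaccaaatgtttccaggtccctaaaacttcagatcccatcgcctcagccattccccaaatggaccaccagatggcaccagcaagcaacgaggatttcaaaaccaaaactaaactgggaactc
C3: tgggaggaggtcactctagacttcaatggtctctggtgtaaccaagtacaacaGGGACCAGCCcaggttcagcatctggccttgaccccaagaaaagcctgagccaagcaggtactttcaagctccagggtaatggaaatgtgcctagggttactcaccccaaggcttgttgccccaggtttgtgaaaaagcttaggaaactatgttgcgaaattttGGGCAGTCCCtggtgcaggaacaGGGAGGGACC
The C3 window held 3 such matches, whose first bases lie 197, 33 and 10 bases before the start, while the windows of C1s1 and C1ra held none. Of 32851 promoters, 17.6% held at least 1 match, and so did Cd55 among the 5 genes. The core of an interferon-stimulated response element, GAAA and GAAA with any 2 bases between, was present in 2.98% of promoters and among the 5 only in Cd59a. A STAT site, TTC and GAA with any 3 bases between, and the E-box CACGTG were in 7.02% and 6.02% of promoters and in none of the 5. A match is a description of these letters and not a shown binding site.

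The membrane inhibitors were the most abundant members in both ages, and C3 and C4b spread most between libraries. Per kilobase of exon, mean levels over the 12 young libraries were 265 normalised CPM for Cd59a, 64.4 for Cd55, 9.76 for Serping1, 6.24 for C1s1, 3.50 for C1ra, 1.20 for C2, 0.328 for C4b, 0.170 for C3 and 0.142 for Cfi. Over the 16 aged libraries they were 133 for Cd59a, 27.7 for Cd55, 16.8 for Serping1, 8.59 for C1s1, 6.73 for C1ra, 5.32 for C4b, 2.50 for C3, 1.88 for C2 and 0.150 for Cfi. Normalised CPM divide by the library size after TMM scaling (trimmed mean of M values), done separately for each age. The highest library exceeded the lowest by 1.25 times for Cd59a and by 28.2 times for C3 in young mice. In aged mice these ratios were 2.00 for C1s1, 2.09 for C1ra, 2.14 for Cd59a, 2.26 for Cd55, 2.72 for Serping1, 6.48 for C2, 55.0 for C4b and 118 for C3. These are bulk samples, in which fewer cells of a type and less RNA per cell cannot be told apart.

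**Figure D1:**
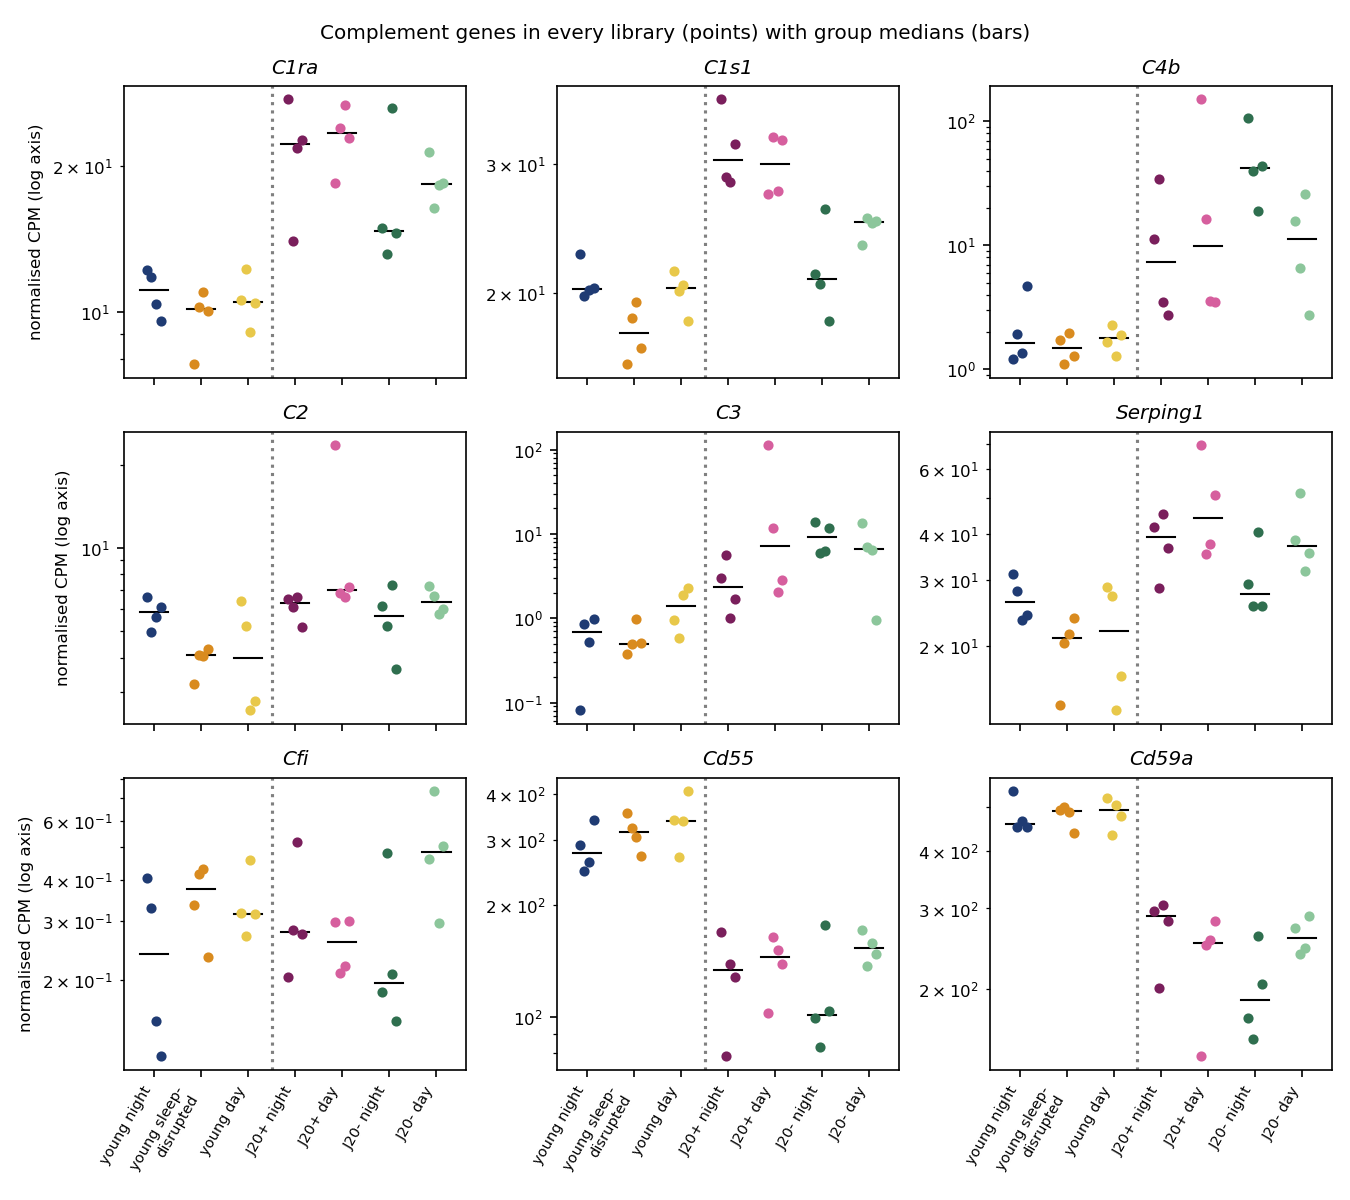
Normalised CPM (log axis) of the 9 complement genes in each of the 28 libraries (points) with group medians (bars); the dotted line separates young from aged groups, which were normalised separately. C3 and C4b spread widest between aged libraries, with J20+ day library 1 at 112 and 151, while C1s1 lay higher in every J20+ than in every J20- library.

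No member passed the test in any of 10 comparisons by edgeR's quasi-likelihood test at a Benjamini-Hochberg adjusted p under 0.05. Few genes passed in the tables as a whole. Of the genes tested, 0.267% were called in young night against day, 0% in sleep-disrupted against day and 0.38% in night against sleep-disrupted mice. In aged mice 0.0436% were called in J20+ night against day, 0.0124% in J20- night against day and 0.124% in night against day over both genotypes. For J20+ against J20- the share was 0% at day, 0.00622% at night and 0% over both times, and 0% differed in their night-day change between genotypes. The counts of 0 members thus stand beside small shares of all genes.

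At an unadjusted p under 0.05 in the same fits, 0 of 9 members passed in young night against day, where 9.39% of all genes did, 1 in sleep-disrupted against day (2.4%) and 2 in night against sleep-disrupted mice (9.7%). In aged mice 2 of 8 passed in J20+ night against day (7.41%), 0 in J20- night against day (31.1%) and 1 in night against day over both genotypes (23.2%). For J20+ against J20-, 2 passed at day (1.87%), 1 at night (31.9%) and 1 over both times (20%), and 2 did for the difference in night-day change (12.4%). DESeq2 called 1 member in J20+ night against day, beside 0.492% of all genes, 1 in J20+ against J20- at night (18.7%) and 1 over both times (2.34%), and 0 in the other comparisons. Limma-voom with quality weights called 1 member in young night against day, beside 18.9% of all genes, 4 in J20- night against day (51.7%) and 1 in aged night against day (34.0%). It called 7 in J20+ against J20- at night (72.1%), 6 over both times (71.3%) and 2 for the difference in night-day change (33.3%), and 0 elsewhere.

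Groups that did not overlap in any library were also counted. Of all genes, 4.69% separated young night from day, 1.97% sleep-disrupted from day, 26.1% J20- night from day and 0.212% aged night from day, and no member did so in these 4 comparisons. C1s1 and C2 separated young night from sleep-disrupted mice (7.83% of all genes), C2 J20+ night from day (3.61%), C1s1 J20+ from J20- at day (1.36%), C1s1 and C3 J20+ from J20- at night (7.15%) and C1s1 the genotypes over both times (0.0249%). With levels scaled by the total count, without TMM, C2 in young night against sleep-disrupted mice and C3 in J20+ against J20- at night still separated the groups, while every separation by C1s1 and that of J20+ night from day by C2 was lost.

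**Figure D2:**
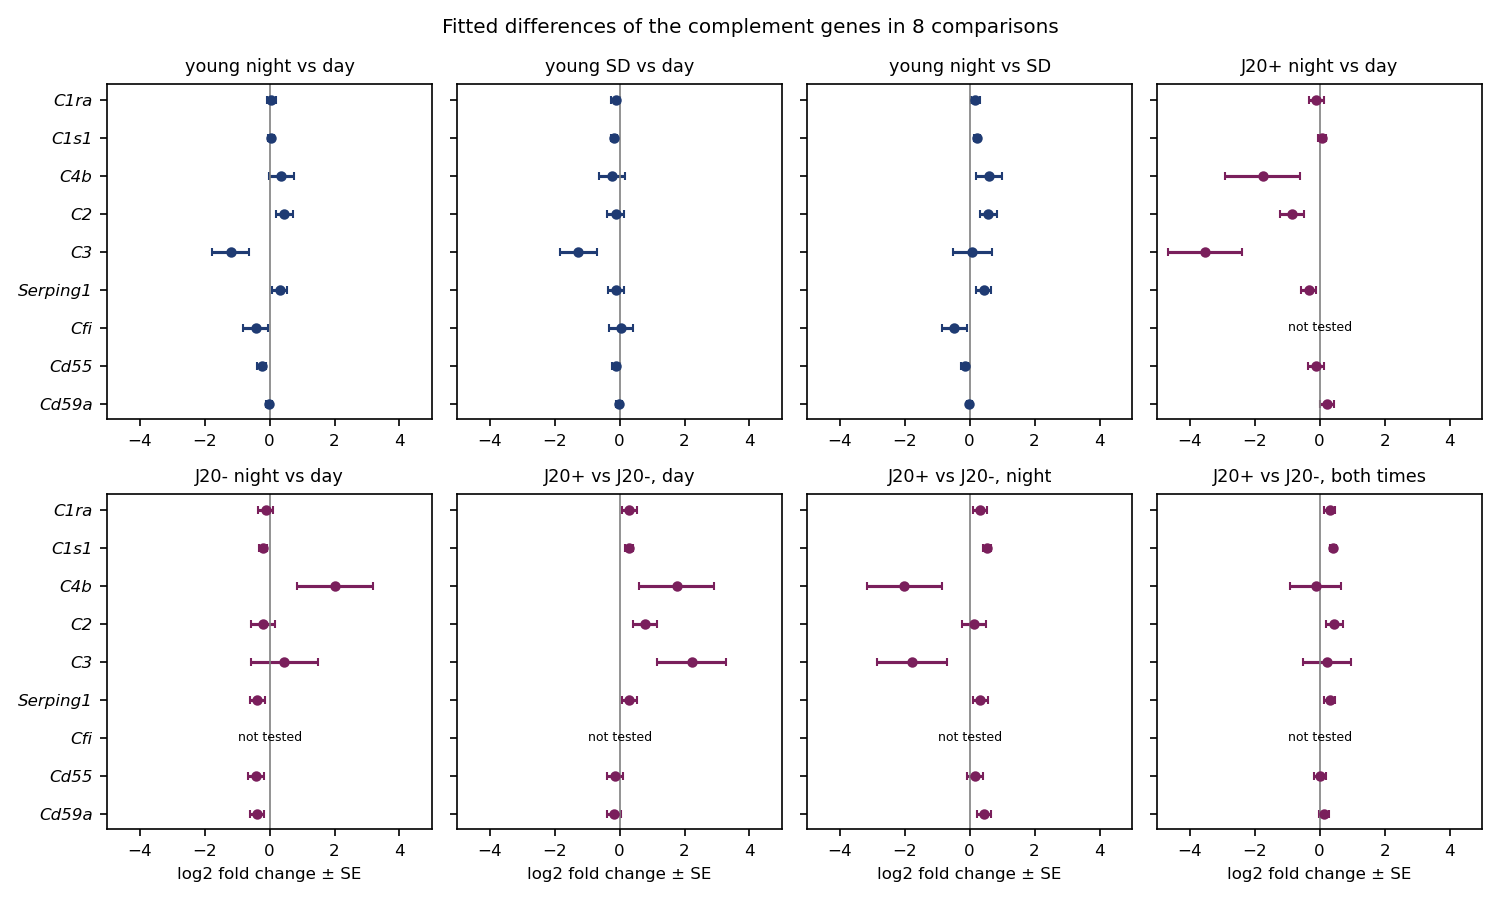
Fitted log2 fold change of each complement gene with its standard error in 8 comparisons, young in blue and aged in purple; Cfi was not tested in aged mice. C3 and C4b carry the widest errors, and C1s1 in J20+ against J20- mice the lowest p of any member.

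C1s1, the protease that cuts C4 and C2, lay higher in J20+ than in J20- choroid plexus, by a modest factor and without overlap between the genotypes, yet it did not pass the adjusted threshold. It had 36.7, 28.8, 28.3 and 31.9 normalised CPM in J20+ night, 27.3, 32.7, 27.5 and 32.4 in J20+ day, 21.2, 20.6, 26.1 and 18.3 in J20- night and 23.2, 25.3, 24.9 and 25.1 in J20- day libraries. Each of the 8 J20+ values exceeded each of the 8 J20- values, with means of 30.7 ± 3.28 in J20+ and 23.1 ± 2.77 in J20- (SD, n = 8 each). Only 4 of the 16065 genes tested (0.0249%) separated the genotypes completely in this way, 2 of them higher in J20+.

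The fitted difference was 0.41 ± 0.09 on the log2 scale (SE), which is 1.33-fold. Its unadjusted p was 0.000316, the fourth smallest of 16065 genes, and its adjusted p by edgeR's quasi-likelihood test was 0.233. An exact two-sided permutation test gave p = 0.000155, the smallest that 8 against 8 libraries allow, and 0.401 after Benjamini-Hochberg adjustment over all genes. At night the difference was 0.54 ± 0.13 (1.46-fold, edgeR adjusted p = 0.0917), and at day it was 0.28 ± 0.13 (1.22-fold, edgeR adjusted p = 0.989). The difference between these 2 values was 0.26 ± 0.18 and did not pass (edgeR adjusted p = 0.500).

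The call on C1s1 depended on the tool and on single libraries, but its direction did not, staying between 0.34 and 0.50 over 26 alternatives. DESeq2 called it over both times (0.40, adjusted p = 0.00536) and at night (0.52, adjusted p = 0.00385), where DESeq2 called 2.34% and 18.7% of all genes. Leaving out J20+ night library 2 also brought an edgeR call over both times (0.44, adjusted p = 0.00591), in a fit that called 42.4% of all genes. Leaving out J20- day library 4 gave an adjusted p of 0.0447, with 3.51% of genes called. When levels were scaled by the total count, without TMM, the genotypes overlapped, with 24.7 to 33.5 CPM in J20+ and 21.1 to 27.1 CPM in J20- libraries. J20+ libraries were also deeper, and their fibroblast markers (10 of 12 higher, median 0.42) and epithelial markers (13 of 15 higher, median 0.40) lay higher, while all 12 oligodendrocyte markers lay lower (median -2.001). With the neural score as a covariate the C1s1 difference was 0.37 ± 0.09, and with the fibroblast score 0.44 ± 0.09. No epithelial score was fitted, and the parts of depth and of epithelial content in the result were not tested.

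**Figure D3:**
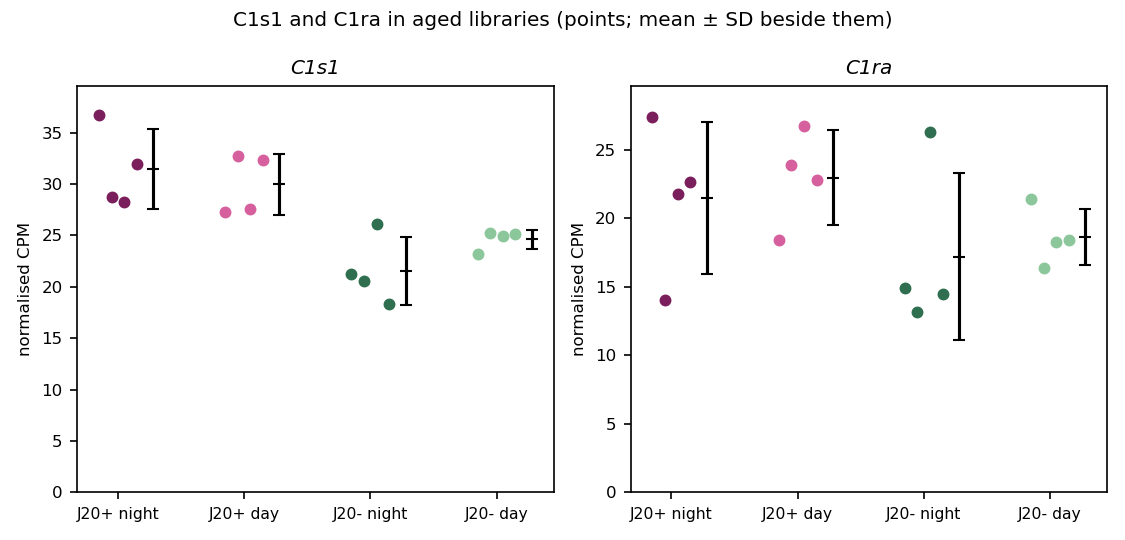
Normalised CPM of C1s1 and of its partner protease gene C1ra in the 16 aged libraries (points), with mean ± SD (n = 4) beside each group. All 8 J20+ values of C1s1 lie at 27.3 or above and all 8 J20- values at 26.1 or below, while the C1ra values overlap.

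C1ra, whose product activates C1s, differed in the same direction with overlap. It had 27.4, 14.0, 21.7 and 22.6 normalised CPM in J20+ night, 18.4, 23.9, 26.7 and 22.8 in J20+ day, 14.9, 13.1, 26.3 and 14.5 in J20- night and 21.4, 16.4, 18.3 and 18.4 in J20- day libraries. J20- night library 3 lay at the J20+ level, and J20+ night library 2 at the J20- level. The fitted difference over both times was 0.31 ± 0.16 (1.24-fold, edgeR adjusted p = 0.277), and it was 0.48 without J20- night library 3. With the neural score as a covariate it was 0.16 ± 0.16. Over the 16 aged libraries the log2 levels of C1ra and C1s1 had a Pearson r of 0.70, and over the 12 young libraries 0.61, values that share normalisation and tissue composition.

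In young mice neither C1s1 nor C1ra passed the test in any comparison, and C1s1 was lowest in sleep-disrupted libraries. C1s1 had 22.6, 19.8, 20.2 and 20.4 normalised CPM in night libraries, 15.99, 18.5, 19.4 and 16.9 in sleep-disrupted mice and 21.4, 20.2, 20.5 and 18.3 at day. Every night value exceeded every sleep-disrupted value, as 7.83% of all genes did in 1 direction or the other. The night difference from sleep-disrupted mice was 0.23 ± 0.09 (1.17-fold, edgeR adjusted p = 0.421), and with total-count CPM the groups overlapped. Sleep-disrupted against day gave -0.18 ± 0.09 (edgeR adjusted p = 0.861) and night against day 0.05 ± 0.09. C1ra differed by 0.05 ± 0.14 between night and day and by -0.12 ± 0.14 between sleep-disrupted and day mice, with levels of 7.79 to 12.2 in all 12 libraries.

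C4b, the substrate of C1s, varied more between aged libraries than between the groups, and it lay high where brain markers were high. It had 11.3, 34.5, 3.49 and 2.74 normalised CPM in J20+ night, 151, 16.2, 3.53 and 3.51 in J20+ day, 106, 39.99, 18.8 and 43.3 in J20- night and 15.9, 6.62, 26.1 and 2.74 in J20- day libraries. The neural score, which joins neuron, oligodendrocyte and astrocyte markers, was 2.99, 4.62, 1.56 and 1.04 in the J20+ night libraries in the same order, and 5.25, 3.74, 1.77 and 1.25 in J20+ day. It was 6.52, 6.08, 3.76 and 5.65 in J20- night and 3.19, 1.95, 4.74 and 0.917 in J20- day libraries. In each of the 4 groups the library with the lowest neural score also had the lowest C4b, and the library with the highest score the highest C4b.

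J20- night against J20- day gave 2.02 ± 1.16 for C4b (4.04-fold, edgeR adjusted p = 0.218), with 3 of 4 night libraries above all day libraries. With the neural score as a covariate the value was -0.78 ± 0.45. J20+ night against J20- night gave -2.01 ± 1.16 (edgeR adjusted p = 0.236), -3.15 without J20+ night library 2, and 0.66 ± 0.45 with the neural score. The 12 neuron markers were all lower in that comparison (median -2.72), as were all 12 oligodendrocyte markers (median -3.24) and 9 of 10 astrocyte markers (median -2.05). J20+ night against J20+ day gave -1.75 ± 1.15 (edgeR adjusted p = 0.672) and 0.74 ± 0.95 without J20+ day library 1, so that the direction turned on that library. J20+ against J20- at day gave 1.76 ± 1.15 and -0.73 ± 0.95 without the same library. Over both times it gave -0.12 ± 0.79 (edgeR adjusted p = 0.93), and -1.325 without J20+ day library 1. The night-day change of C4b differed between J20+ and J20- by -3.767 ± 1.635 (edgeR adjusted p = 0.379), and by -1.182 without that library. Apart from these fits, the part of brain tissue in the differences was not tested.

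In young mice C4b was low. It had 1.21, 1.93, 1.36 and 4.69 normalised CPM in night libraries, 1.72, 1.10, 1.98 and 1.27 in sleep-disrupted libraries and 1.68, 2.27, 1.29 and 1.89 at day. Night library 4 was the highest, and it also had the highest young macrophage score (3.57) and neural score (2.68). Night against day gave 0.36 ± 0.39 (edgeR adjusted p = 0.774) and -0.24 without that library. C4b and C4a, its near-identical neighbour on chromosome 17 (GRCm38.p6 chr17:34728139-34743902 and chr17:34809092-34823460), could share reads, so both are uncertain. C4a had 0.394 to 0.948 normalised CPM in young and 2.01 to 15.3 in aged libraries.

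C2, whose product joins C4b in the convertase, had similar levels in all aged groups apart from 1 library. It had 6.54, 6.11, 6.64 and 5.17 normalised CPM in J20+ night, 23.5, 6.83, 6.65 and 7.22 in J20+ day, 6.13, 5.22, 7.35 and 3.63 in J20- night and 7.26, 6.69, 5.74 and 5.99 in J20- day libraries. Each J20+ day value exceeded each J20+ night value, the closest pair by 6.65 against 6.64, as happened for 3.61% of all genes in either direction. Scaled by the total count, these groups overlapped, with 4.58 to 6.95 CPM in J20+ night and 6.18 to 27.04 in J20+ day libraries. The fitted night-day difference in J20+ was -0.85 ± 0.36 (edgeR adjusted p = 0.652), and -0.18 ± 0.22 without J20+ day library 1. J20+ against J20- at day was 0.78 ± 0.36 (edgeR adjusted p = 0.989), and 0.10 ± 0.22 without that library. Over both times it was 0.46 ± 0.26 (edgeR adjusted p = 0.304), and 0.14 without J20+ day library 1.

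In young mice C2 was spread most among day libraries and lay higher at night than after sleep disruption. It had 6.63, 4.95, 5.62 and 6.11 normalised CPM in night libraries, 3.21, 4.09, 4.05 and 4.29 in sleep-disrupted libraries and 6.43, 5.19, 2.58 and 2.80 at day. All 4 night values exceeded all 4 sleep-disrupted values, while 2 day libraries lay above and 2 below all sleep-disrupted values. Night against sleep-disrupted gave 0.57 ± 0.26 (1.49-fold, edgeR adjusted p = 0.507), and the exact two-sided permutation p was 0.0286, the smallest that 4 against 4 allow (0.365 after Benjamini-Hochberg adjustment over all genes). Over 17 alternatives, marker scores as covariates among them, the fitted value ranged from 0.295 to 0.645, with 0 calls. Leaving out single libraries gave 0.489 to 0.645. Macrophage markers were higher at night than after sleep disruption in 17 of 18 genes (median 1.10) and fibroblast markers in 10 of 10 tested (median 0.41), with summed fibroblast levels of 414 to 646 CPM at night and 344 to 431 after sleep disruption.

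C3, the central component, differed more between single libraries than between groups. It had 2.98, 5.60, 1.00 and 1.68 normalised CPM in J20+ night, 112, 11.7, 2.06 and 2.81 in J20+ day, 13.9, 5.94, 6.31 and 11.8 in J20- night and 13.5, 6.95, 6.39 and 0.952 in J20- day libraries. J20+ day library 1 was far above every other library, the next being J20- night library 1. J20+ night against J20+ day gave -3.53 ± 1.14 (unadjusted p = 0.00744, edgeR adjusted p = 0.643), and -0.98 ± 0.78 without that library. DESeq2 called the difference at -3.60 (adjusted p = 0.0467) with all libraries in.

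At night C3 was lower in every J20+ library than in every J20- library, at 2.82 ± 2.03 against 9.50 ± 3.99 normalised CPM (SD, n = 4 each). Complete separation was seen in 7.15% of all genes in that comparison. The fitted value was -1.76 ± 1.07 (0.294-fold, edgeR adjusted p = 0.258), the exact two-sided permutation p was 0.0286 (0.319 after adjustment over all genes), and with the neural score as a covariate the value was 0.54 ± 0.85. J20+ against J20- at day was 2.215 ± 1.071 (edgeR adjusted p = 0.989), and -0.337 without J20+ day library 1. J20+ against J20- over both times was 0.23 ± 0.74 and became -1.01 ± 0.54 without J20+ day library 1. Night against day over both genotypes was -1.539 ± 0.749 (edgeR adjusted p = 0.227), and -0.305 without that library. The night-day change differed between J20+ and J20- by -3.98 ± 1.52 (edgeR adjusted p = 0.360), and by -1.35 without J20+ day library 1.

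In J20+ day library 1 the 3 cascade genes C3, C4b and C2 and the inhibitor gene Serping1 were all the highest of the 16 aged libraries, whereas Cd55 and Cd59a were the lowest of their group. Its C1s1 (27.3) and C1ra (18.4) were also the lowest of the group. Summed CPM there were 850 for fibroblast markers, 528 for endothelial markers, 651 for the interferon response list and 1945 for astrocyte markers, against 256 to 465, 115 to 288, 290 to 787 and 221 to 1654 in the other 15 aged libraries. The macrophage score (3.62) and the acute-phase score (1.55) of that library were also the highest of all aged libraries. The part of these markers in its C3, C4b, C2 and Serping1 values was not tested. 

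In young mice C3 was near 1 CPM. It had 0.0809, 0.852, 0.528 and 0.986 normalised CPM in night libraries, 0.373, 0.492, 0.991 and 0.503 in sleep-disrupted libraries and 0.951, 0.577, 1.87 and 2.28 at day. These values rest on 2 to 58 counts per library. Night against day gave -1.19 ± 0.57 (0.437-fold, edgeR adjusted p = 0.549) and sleep-disrupted against day -1.27 ± 0.57 (0.414-fold, edgeR adjusted p = 0.861). Day libraries 3 and 4 held the highest values, and both comparisons use the same day libraries.

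**Figure D4:**
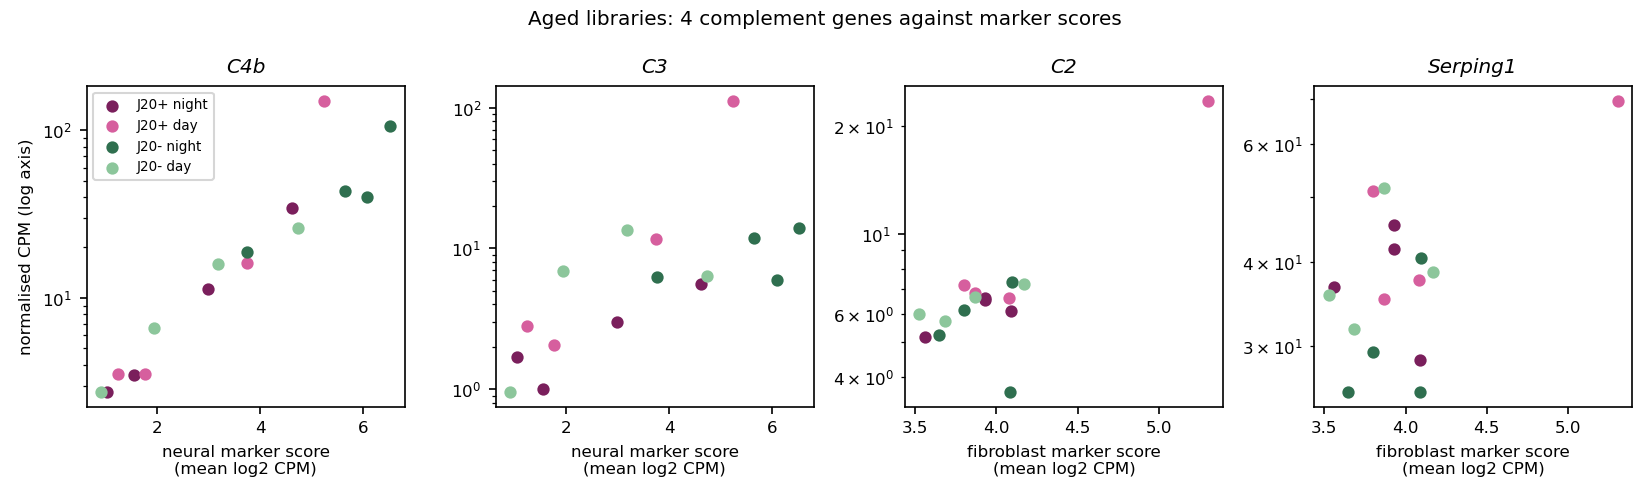
Normalised CPM (log axis) of C4b and C3 against the neural marker score, and of C2 and Serping1 against the fibroblast marker score, in the 16 aged libraries. C4b is lowest, at 2.74, in libraries of low neural score and reaches 106 and 151 at scores of 6.52 and 5.25, and J20+ day library 1 lies at the far right of the fibroblast panels.

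Serping1, the inhibitor of C1r and C1s, had the highest level per kilobase of the soluble members, and edgeR called no difference in it. It had 41.8, 28.6, 45.5 and 36.7 normalised CPM in J20+ night, 69.5, 35.3, 37.6 and 51.0 in J20+ day, 29.4, 25.6, 40.6 and 25.6 in J20- night and 38.6, 51.5, 31.8 and 35.7 in J20- day libraries. All 4 groups overlapped. J20+ against J20- over both times was 0.31 ± 0.17 (1.24-fold, edgeR adjusted p = 0.282) and night against day over both genotypes was -0.36 ± 0.17 (0.779-fold, edgeR adjusted p = 0.211). Without J20+ day library 1 these values were 0.22 and -0.27. Limma-voom called Serping1 in J20+ against J20- at night (0.61, adjusted p = 0.00533) and over both times (0.35, adjusted p = 0.0137), and in J20- night against day (-0.56, adjusted p = 0.0203), where it called 72.1%, 71.3% and 51.7% of all genes.

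In young mice Serping1 had 31.2, 28.1, 23.4 and 24.2 normalised CPM in night libraries, 13.8, 20.4, 21.5 and 23.7 in sleep-disrupted libraries and 28.8, 27.3, 13.4 and 16.6 at day. Day libraries 1 and 2 lay with the night libraries, and day libraries 3 and 4 lay with or under the sleep-disrupted ones. Night against day gave 0.31 ± 0.24 (edgeR adjusted p = 0.680) and night against sleep-disrupted 0.43 ± 0.24 (1.35-fold, edgeR adjusted p = 0.647). Fibroblast marker scores of the 4 day libraries were 2.76, 2.73, 1.83 and 2.34, and C2 and Serping1 took the same order of high and low libraries. With the stromal score as a covariate, night against day was 0.12 ± 0.15 for Serping1 and 0.25 ± 0.18 for C2. A fit with the fibroblast score as a covariate called 0 members and 0.1% of all genes in night against day. Over all alternatives, that fit among them, night against day was 0.083 to 0.483 for Serping1 and 0.192 to 0.72 for C2, with 0 calls. Apart from these fits, the part of fibroblast content was not tested.

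**Figure D5:**
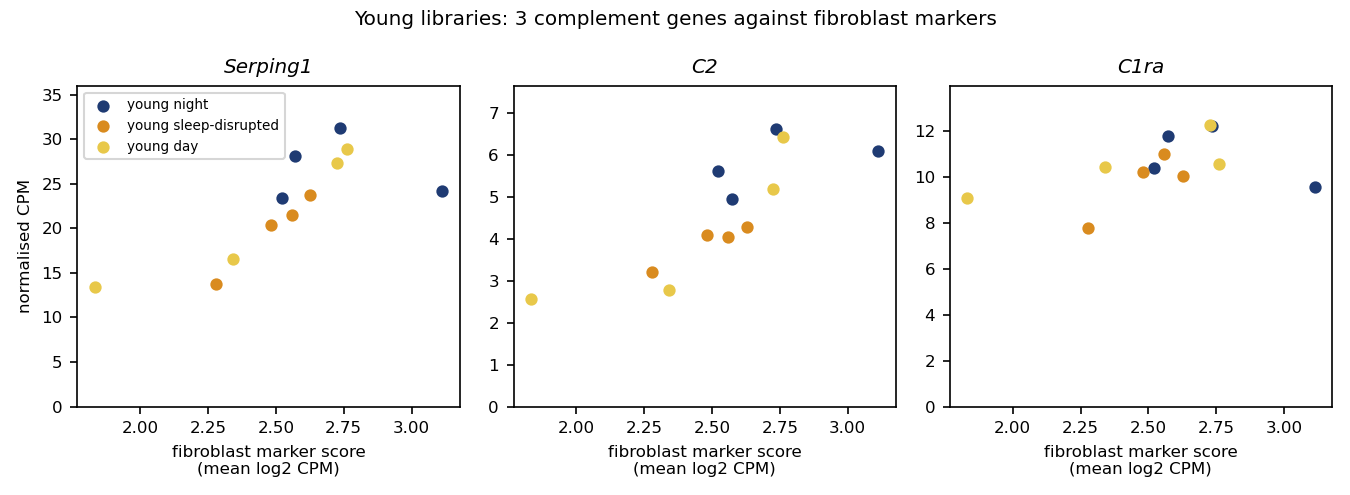
Normalised CPM of Serping1, C2 and C1ra against the fibroblast marker score (mean log2 CPM) in the 12 young libraries. Day libraries 3 and 4, with scores of 1.83 and 2.34, hold the lowest Serping1 and C2 of the day group.

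Cfi, the protease that inactivates C3b and C4b, was near the limit of detection in this tissue. It had 0.118 to 0.404 normalised CPM in night libraries, 0.235 to 0.431 in sleep-disrupted libraries and 0.271 to 0.457 at day in young mice, from 3 to 11 counts per library. In aged mice it had 0.204 to 0.519 in J20+ night, 0.210 to 0.301 in J20+ day, 0.151 to 0.480 in J20- night and 0.296 to 0.735 in J20- day libraries, from 3 to 14 counts. The young night-day difference was -0.42 ± 0.39 (edgeR adjusted p = 0.731).

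Cd55, which takes C3 convertases apart, and Cd59a, which blocks the membrane attack complex, had the highest levels of the 9 genes in young mice and overlapped between all 3 groups. Cd55 had 291, 248, 261 and 341 normalised CPM in night libraries, 354, 324, 305 and 272 in sleep-disrupted libraries and 340, 270, 337 and 406 at day. Night against day was -0.25 ± 0.13 (0.843-fold, edgeR adjusted p = 0.591), called by limma-voom with quality weights at -0.34 (adjusted p = 0.0271), which called 18.9% of all genes there. Cd59a averaged 478 ± 42.7 normalised CPM in night libraries, 479 ± 27.1 in sleep-disrupted libraries and 484 ± 38.9 at day (SD, n = 4 each). Its fitted differences were -0.02 ± 0.08 for night against day and for sleep-disrupted against day, and 0.00 ± 0.08 for night against sleep-disrupted mice.

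In aged mice Cd55 and Cd59a were low in the same 3 J20- night libraries and in J20+ night library 2 and J20+ day library 1. Cd55 had 170, 78.5, 139 and 129 normalised CPM in J20+ night, 103, 165, 152 and 139 in J20+ day, 99.4, 82.9, 177 and 104 in J20- night and 171, 138, 158 and 148 in J20- day libraries. Cd59a had 296, 201, 305 and 282 in J20+ night, 143, 249, 256 and 281 in J20+ day, 173, 156, 262 and 206 in J20- night and 272, 238, 246 and 289 in J20- day libraries. For both genes, 3 of 4 J20- night libraries lay under all J20- day libraries, and library 3 did not. The lowest aged value of Cd55 was in J20+ night library 2 and that of Cd59a in J20+ day library 1. Summed epithelial markers in these libraries were 24100 and 32580 CPM. J20- night against J20- day was -0.41 ± 0.25 for Cd55 (edgeR adjusted p = 0.239) and -0.39 ± 0.21 for Cd59a (edgeR adjusted p = 0.201), and 0.00 ± 0.18 for Cd59a with the neural score as a covariate. All 15 epithelial markers were lower in that comparison (median -0.77), with 24670 to 36530 summed CPM in J20- night and 43400 to 53420 in J20- day libraries, and their part in the result was not tested. J20+ night against J20- night was 0.44 ± 0.21 for Cd59a (1.36-fold, edgeR adjusted p = 0.166) and 0.15 ± 0.25 for Cd55.

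The order of group means separated only 1 pair of neighbouring groups completely, J20+ day above J20- day for C1s1. In every other step of the order, for all 9 genes within young or within aged groups, the libraries of neighbouring groups overlapped. As a set, the members had a median log2 difference of 0.27 in J20+ against J20- over both times (7 of 8 positive), against 0.01 for all genes tested. Among the 7, C3 was -1.01 without J20+ day library 1, and Cd55 was 0.01 and changed sign in 13 of its 26 alternatives. Markers of epithelium (median 0.40), fibroblasts (0.42) and endothelium (0.27, 11 of 12 positive) were higher in the same comparison. With the stromal or the fibroblast score as a covariate 0 members were called there, and no epithelial score was fitted. The median was not recomputed in those fits, so the part of these markers in it was not tested. For J20- night against J20- day the median was -0.20 for members and 0.03 for all genes. In young mice the members' medians were 0.05 at night against day, -0.12 for sleep-disrupted against day and 0.17 for night against sleep-disrupted, and those of all genes were 0.02, 0.00 and 0.01.

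The other 54 complement genes listed, among them those of C1q, the lectin and alternative pathways, the terminal components, other regulators and receptors, gave 0 calls by edgeR with all libraries, in either direction, in each of the 10 comparisons. In young mice 32 of the 54 were tested and in aged mice 34. Cfb, factor B of the alternative convertase, lies 87 bases from C2 on chromosome 17. It had 9.26, 9.53, 8.30 and 6.90 normalised CPM at young night, 5.89, 6.59, 8.41 and 6.80 in sleep-disrupted libraries and 5.80, 5.66, 6.27 and 5.67 at day, so that every night value exceeded every day value, as 4.69% of genes did in either direction. Its night-day difference was 0.54 ± 0.14 (1.45-fold, edgeR adjusted p = 0.186). C1qb, a chain of C1q made by macrophages, gave 1.43 ± 0.41 (edgeR adjusted p = 0.238) and Itgb2, the beta chain of complement receptors 3 and 4, gave 2.52 ± 0.84 (edgeR adjusted p = 0.366), beside 17 of 18 macrophage markers that were higher at night (median 0.91). The macrophage markers listed include C1qa, C1qb and C1qc, so the C1qb value is not separate from that count and median. The summed macrophage level was 115 to 542 CPM at night and 97.6 to 169 at day. The highest, night library 4, had 16.1 normalised CPM of Itgb2, against 0.679 to 1.57 in the other 3 night libraries. Without it the night-day difference was 0.45 ± 0.28 for Itgb2, 0.89 ± 0.30 for C1qb and 0.63 ± 0.13 for Cfb. Cfb then passed (edgeR adjusted p = 0.0483), in a fit that called 0.724% of all genes.

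After sleep disruption the smallest p-values among the other complement genes were those of Itgax (-1.14 ± 0.43), C1rl (0.28 ± 0.14) and Cd93 (-0.53 ± 0.29), each with an edgeR adjusted p of 0.861. Night against sleep-disrupted mice gave 1.39 ± 0.40 for C1qb (edgeR adjusted p = 0.232), 2.87 ± 0.85 for Itgb2 (0.254) and 2.17 ± 0.68 for C3ar1, the receptor of the C3a fragment (0.294). Night library 4 carried these as well, with 38.5 normalised CPM of C3ar1 against 2.68 to 6.43 in the other night libraries. Without it the values were 0.86 ± 0.30 for C1qb, 0.80 ± 0.29 for Itgb2 and 0.67 ± 0.28 for C3ar1. In aged J20- mice night against day gave 1.72 ± 0.57 for Susd4, a regulator of the convertase, 1.08 ± 0.43 for the ficolin gene Fcna and 0.52 ± 0.23 for C1qc, with edgeR adjusted p-values of 0.144, 0.144 and 0.151. All 12 neuron markers were higher in the same comparison (median 3.17), and their part in the Susd4 value was not tested. In J20+ mice night against day gave -2.95 ± 1.23 for Masp1, 1.83 ± 0.77 for Masp2 and 0.93 ± 0.43 for Fcna, each with an edgeR adjusted p of 0.652. Masp1 was -0.70 ± 1.13 without J20+ day library 1, and Masp2 was 0.58 and Fcna 0.50 without J20+ night library 2. Over both genotypes it gave 1.01 ± 0.30 for Fcna (edgeR adjusted p = 0.143), 1.60 ± 0.54 for Masp2 (0.150) and -0.55 ± 0.20 for the collectin gene Colec12 (0.160), and Masp2 was 0.98 without J20+ night library 2.

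J20+ against J20- at day gave 1.35 ± 0.73 for Hc, which encodes C5, 0.49 ± 0.28 for Colec12 and -0.20 ± 0.14 for C1qbp, each with an edgeR adjusted p of 0.989. Hc had 9.05 normalised CPM in J20+ day library 1 and 0.687 to 1.053 in the other 3, and without that library its value was -0.33 ± 0.48 and that of Colec12 0.32 ± 0.30. At night it gave -1.59 ± 0.56 for Susd4 (edgeR adjusted p = 0.0977), 0.41 ± 0.16 for Cfb (0.109) and -0.34 ± 0.14 for C1qbp (0.116). Without J20+ night library 2, where 57.7% of all genes were called, Susd4 (-2.002, edgeR adjusted p = 0.0122) and Cfb (0.53, edgeR adjusted p = 0.00544) passed, and C1qbp was -0.12 without J20- night library 3. Over both times C1qbp, Cfb and Colec12 had the smallest p-values, at -0.27 ± 0.10, 0.27 ± 0.11 and 0.45 ± 0.20, with edgeR adjusted p-values of 0.233, 0.233 and 0.240. All 3 passed without J20+ night library 2, at edgeR adjusted p-values of 0.0491, 0.0121 and 0.0226, in a fit that called 42.4% of all genes. For the difference in night-day change between genotypes these were Susd4 (-2.34 ± 0.79), Masp1 (-4.53 ± 1.68) and C1qc (-0.81 ± 0.32), with edgeR adjusted p-values of 0.359, 0.359 and 0.363. Without J20+ day library 1 they were -1.47 ± 0.65, -2.20 ± 1.44 and -0.52 ± 0.28. Without J20+ night library 2 Susd4 passed (-2.74, edgeR adjusted p = 0.0422), in a fit that called 20.9% of all genes. All 12 neuron markers had the sign of Susd4 in this comparison (median -3.76) and in J20+ against J20- at night (median -2.72). Their part in the Susd4 values was not tested.

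Close copies of other members could also share reads with them, and the levels of all of these but Cd59b were low. C1s2 had 0 to 0.679 and C1rb 0 to 0.752 normalised CPM in all 28 libraries. Cd55b had 0.170 to 1.87, and Cd59b 6.96 to 15.7. The sources used here do not give the strand setting or the treatment of reads with several alignments.

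Across libraries the members did not vary as a single set. C2 and Serping1 had a Pearson r of 0.91 over the 12 young and 0.79 aged libraries, C3 and C4b one of 0.33 and 0.86, and C4b and Cd59a one of -0.45 and -0.85. These are log2 levels that share library scaling and tissue composition. Among 11686 genes with a mean of at least 1 log2 CPM in both ages, the 2 most alike in both were chosen by the lower of the young and the aged r. C2 was most like Dcn, the fibroblast proteoglycan gene decorin (0.85 young, 0.89 aged), and Adgra2 (0.84 and 0.85). Serping1 was most like Mfap4 (0.87 and 0.86), which encodes a matrix fibril protein, and the endothelial gene Egfl7 (0.84 and 0.84).

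C4b was most like Dock10 (0.88 young, 0.91 aged) and Gatm (0.87 and 0.88). Cd55 was most like Slc16a4, which encodes a transporter (0.96 and 0.92), and C1galt1c1 (0.92 and 0.93). Cd59a was most like 9530068E07Rik (0.81 and 0.81) and Ak3 (0.81 and 0.81), and C1ra most like Leprot (0.83 and 0.82) and Gusb (0.79 and 0.79). C3 was most like the Notch target gene Hey1 (0.78 and 0.82) and the cilium gene Spag17 (0.75 and 0.80). C1s1 had the lowest of these values besides Cfi, with Ifnar1, the interferon alpha and beta receptor gene (0.74 and 0.73), and Fbln5 (0.71 and 0.68). Cfi was paired with Slc25a35 (0.70 and 0.65) and Dnah6 (0.63 and 0.60) at levels of a few counts.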

How the data were processed

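RNA from lateral ventricle choroid plexus was sequenced as stranded poly(A) libraries, per the labels' protocols. Per the submitters' processing notes, the genome build was mm10, reads were handled with HISAT2 2.2.1 and featureCounts 2.0.1, and FastQC 0.11.8, Picard 2.18.2, cutadapt and DESeq2 were also used. For the annotation, strand setting, order of steps and multiply aligned reads, the sources give nothing. The files hold whole-number counts by Entrez identifier, not normalized, in 1 table of 12 young and 1 of 16 aged libraries, and the authors' counts were used as deposited. Of 27179 identifiers, 25275 (93.0%) were given a symbol from RefSeq genes of GRCm38.p6, which is the same assembly as mm10.

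Each table was filtered with filterByExpr by group, scaled by TMM and fitted with robust glmQLFit in edgeR 4.0.16 (R 4.3.3), with 1 coefficient per group and all libraries of that age. The young fit held 14983 genes and the aged fit 16065. P-values of glmQLFTest received a Benjamini-Hochberg adjustment over all genes tested in that comparison, and 0.05 was the threshold. Each standard error is the log2 fold change over the square root of F. Log2 CPM has a prior count of 2. Levels per kilobase use the union of exons of GENCODE M21, also of GRCm38. Exact permutation tests are two-sided, on log2 CPM, over all genes.

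The 9 members, the gene lists and the tests were chosen with earlier results of these data known. Text counts the members called in every comparison and gives fitted values of single members for a part of the comparisons. It also names the 3 other complement genes with the smallest p per comparison, and the 2 genes most alike to each member. Alternatives were RLE scaling, DESeq2 1.42.0, limma-voom 3.58.1 with quality weights, omission of the count filter, a stricter filter of 10 CPM in 4 libraries, neural, stromal or macrophage scores as covariates, a fit restricted to the groups compared, and omission of single libraries. A covariate of fibroblast score and a fit without both J20+ day library 1 and J20+ night library 2 were chosen after seeing the data, as was leaving out single libraries for the other complement genes. Replicates are separate mice. The fits were also run on simulated data, in a single comparison per age, and no power to detect differences of the sizes reported is given here. Depth was 14.6M to 43.9M counts per library, and few counts limit the precision of Cfi and of young C3.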

Additional observations from a re-analysis of the deposited data

Results flagged for a closer look

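In 63 sets of 4 libraries, 9 genes in 7 groups, 5 had 1 library far from the other 3 by Dixon's criterion, which chance alone gives in about 1 set in 20. J20+ day library 1 accounted for 3 of them, at 112 normalised CPM for C3, 151 for C4b and 23.5 for C2. Aged J20- night library 3 had 26.3 for C1ra, against 13.1 to 14.9 in the rest of its group. Young night library 1 had 541 for Cd59a, against 452 to 465 in the rest.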

How the results depend on the processing

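Over 10 comparisons and their alternatives, the count of members called was recomputed 207 times, stayed at 0 in 191 and was above 0 in 16. With DESeq2 it was 1 in J20+ night against day (C3), 1 in J20+ against J20- at night and 1 over both times (C1s1). With limma-voom it was 1 in young night against day, 4 in J20- night against day, 1 in aged night against day, 7 in J20+ against J20- at night, 6 over both times and 2 for the difference in night-day change; that tool called 18.9% to 72.1% of all genes there. The fibroblast score as a covariate gave 1 in J20+ against J20- at night (C1s1; 7.16% of all genes). Leaving out J20+ day library 1 with J20+ night library 2 gave 4 at night and 4 over both times, where 62.9% and 56.6% of all genes were called. Leaving out 1 library gave 0 to 2 members called in J20+ against J20- at night and 0 to 2 over both times, and 0 in the other comparisons. The libraries concerned were J20+ night 2 (C1s1 and Cd59a at night, 57.7% of all genes; C1s1 and C1ra over both times, 42.4%), J20- day 4 (C1s1, 3.51%) and J20- night 3 (C1s1, 0.654%). One called value turned its sign: C3 in J20+ against J20- over both times was -2.01 with limma-voom (adjusted p = 0.0017), against 0.23 by edgeR, and the cause was not tested. Of 1688 recomputed member values 39 passed the threshold, and 152 had another sign than the edgeR value, 151 of them without a call. No paired analysis was possible because the replicate numbers follow the order of the sample records and name separate mice.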
